A study of Homo sapiens with 6 samples.

Results

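Lysosomes digest what a cell takes up or discards, and autophagy is the route that delivers a cell's own parts to them. The expression of 55 genes of these pathways was followed in Hep3B cells, a human hepatocellular carcinoma line, after knockdown of NXN (nucleoredoxin, a redox-active protein of the thioredoxin family). The genes were listed by function, as 3 transcription factors, 4 lysosomal membrane proteins, 15 lysosomal hydrolases, 2 lumenal lipid-binding cofactors, 7 subunits or partners of the V-ATPase and 24 genes of the autophagy machinery. All 55 were found, through their Ensembl identifiers, among the 23406 features of the count table, and 54 passed the filter on low counts. The member that did not pass, ULK2, was at or below 1.18 CPM (counts scaled to library size) in every library.

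The 6 RNA libraries were 3 of Hep3B cells carrying a control shRNA (shControl, genotype label WT) and 3 of cells carrying an shRNA against NXN (shNXN). Cells were taken on days 7, 9 and 11, so each group and day had 1 library. The shRNAs were delivered by lentivirus and the cells were selected with puromycin, so every library comes from a transduced, drug-selected population of 1 cell line, and the shRNA sequence behind the sequenced cells is not given. Nothing states that the 3 libraries of a group came from separate cultures, so p-values measure only the spread between these libraries. Values of a gene are given below in the order of days 7, 9 and 11.

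The lysosome is kept acid by the V-ATPase, a proton pump built of a membrane part that carries the protons and a cytosolic part that burns ATP. Its acid-loving hydrolases include cathepsins, which cut proteins, glycosidases, which trim sugars from lipids and proteins, and lipid-cleaving enzymes. TFEB, TFE3 and MITF are related transcription factors that enter the nucleus when nutrients are short and bind E-boxes, in particular a palindromic form called the CLEAR element, in the promoters of lysosomal genes. Autophagy begins with the ULK1 kinase complex, continues with a lipid kinase complex that marks the growing membrane, and closes with ubiquitin-like conjugation systems that attach LC3 and GABARAP proteins to the membrane, where cargo receptors bind them. In hepatocytes this route recycles proteins, organelles and lipid droplets during fasting.

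Promoters of the listed genes were searched for the E-box that these factors bind. RefSeq (GRCh38.p14) gave a window from 250 bases before to 50 bases after the start for 45 of the 55 genes. There was no window for ATP6V1C1, ATP6V1A, ATP6V1B2, ATP6V1H, PSAP, LAMP2, ASAH1, CTSB, HEXA and RB1CC1. The E-box core CACGTG, which reads the same on both strands, was in 9 of these 45 windows (20%) and in 8.78% of the windows of 27305 genes. The longer form TCACGTG, searched on both strands and containing the core, was in the same 9 windows and in 4.49% of all windows. The full palindrome GTCACGTGAC was in 2, those of GAA and MCOLN1, and in 0.421% of all windows. The 9 genes were LAMP1, MCOLN1, CTSA, CTSD, GAA, NEU1, ATP6V0D1, ATG14 and ATG3. Lysosomal membrane proteins had the core in 2 of 3 windows, hydrolases in 4 of 12 and the autophagy genes in 2 of 23.

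Stretches upstream of the start are shown for 6 of these genes, 5 lysosomal and 1 of the autophagy machinery, because they show the core, its number of copies and its neighbouring bases. Each runs 5′ to 3′ on the strand of its gene, with every CACGTG in capitals. The stretch of LAMP1 (chr13:113297027-113297236, plus strand) shows 5 of the 6 cores of its window, and the other begins 1 base before the start. MCOLN1 (chr19:7522563-7522623, plus strand), GAA (chr17:80101485-80101575, plus strand) and CTSA (chr20:45891273-45891334, plus strand) held 2 each. CTSD (chr11:1763949-1763994, minus strand) held 1. The stretch of ATG3 (chr3:112561963-112562000, minus strand) shows 1 of its 2 cores, and the other lies after the start, at position 5.
LAMP1: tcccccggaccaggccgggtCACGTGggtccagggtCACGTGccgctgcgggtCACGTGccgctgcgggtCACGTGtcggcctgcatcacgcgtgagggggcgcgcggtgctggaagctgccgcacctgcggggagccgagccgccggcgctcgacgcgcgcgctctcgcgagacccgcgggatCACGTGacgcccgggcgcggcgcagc
MCOLN1: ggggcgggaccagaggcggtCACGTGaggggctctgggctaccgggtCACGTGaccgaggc
GAA: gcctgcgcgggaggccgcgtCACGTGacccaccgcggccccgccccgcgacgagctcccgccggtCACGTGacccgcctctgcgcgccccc
CTSA: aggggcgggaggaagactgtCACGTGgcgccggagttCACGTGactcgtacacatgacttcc
CTSD: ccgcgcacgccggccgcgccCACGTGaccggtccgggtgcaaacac
ATG3: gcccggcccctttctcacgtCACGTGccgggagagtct

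The depth was even, with totals from 15349382 to 16332589 estimated counts per library, so depth did not separate the groups. NXN itself (chr17:799313-979770, minus strand, GRCh38) stood at 181, 138 and 143 CPM in shControl and 42.7, 47.5 and 39.5 CPM in shNXN, so every shNXN library lay below every shControl library. NXN fell from 154 ± 23.4 to 43.2 ± 4.03 CPM (SD, n = 3), which is -1.83 ± 0.16 on the log2 scale (SE, adjusted p = 0.0378, quasi-likelihood test of edgeR, adjusted by Benjamini and Hochberg's method over all 14071 features tested). All 7 hepatocyte markers were detected, led by ALB, and none passed the test. The summed level of the 7 ran from 12445 to 22876 CPM in shControl and from 5864 to 14430 CPM in shNXN. Markers of leukocytes and macrophages summed to at most 14.3 CPM, with TYROBP at 0 throughout, and those of fibroblasts and endothelium to at most 8.51 CPM, with VWF at 0. The GC content of a gene's transcript moved with its fold change over the whole table: Spearman's rho across 12740 features with a known GC content was 0.79, a description across genes that share the same 6 libraries. The main results below are therefore also given from a fit in which the GC trend of every library had been removed (GC correction). In that fit NXN stood at -2.24 on the log2 scale (adjusted p = 0.00972, edgeR). The part that GC content or the level of the hepatocyte markers has in the results was not tested.

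Of the 54 genes tested, 4 fell and 0 rose in shNXN cells. The background share of features called was 3.39% in either direction (3.21% lower and 0.185% higher), and the members lower were 7.41%. At an unadjusted p under 0.05 in edgeR there were 12 lower (22.2%) and 4 higher (7.41%), beside 21.3% of all features lower and 11.6% higher. The 4 called were SCARB2, ATP6V1C1, ATP6AP2 and RB1CC1, with log2 fold changes from -1.83 to -0.95. In the fit with the day as a block, 12 members (22.2%) were lower and 3 (5.56%) higher, beside 17.0% of all features lower and 6.28% higher. The 12 were the same 4 with LAMP2, LIPA, ASAH1, ATP6V1A, PIK3C3, ATG4C, ATG5 and MAP1LC3B, and the 3 were LAMP1, CTSH and OPTN. After GC correction 0 members passed, with the day block or without it (edgeR). The background of calls in those fits was 0.0355% of features without the block and 0.455% with it. At an unadjusted p under 0.05 in edgeR after GC correction, 9 members were lower (16.7%) and 5 higher (9.26%), beside 9.09% and 7.82% of all features. With the block as well, 9 were lower (16.7%) and 6 higher (11.1%), beside 11.6% and 10.2%. In CPM, the groups did not overlap for 13 members that were lower (24.1%) and 8 that were higher (14.8%), beside 21.5% and 19.0% of all features. The libraries measured RNA of whole cultures, in which fewer cells of a type and less RNA per cell cannot be told apart.

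**Figure D1:**
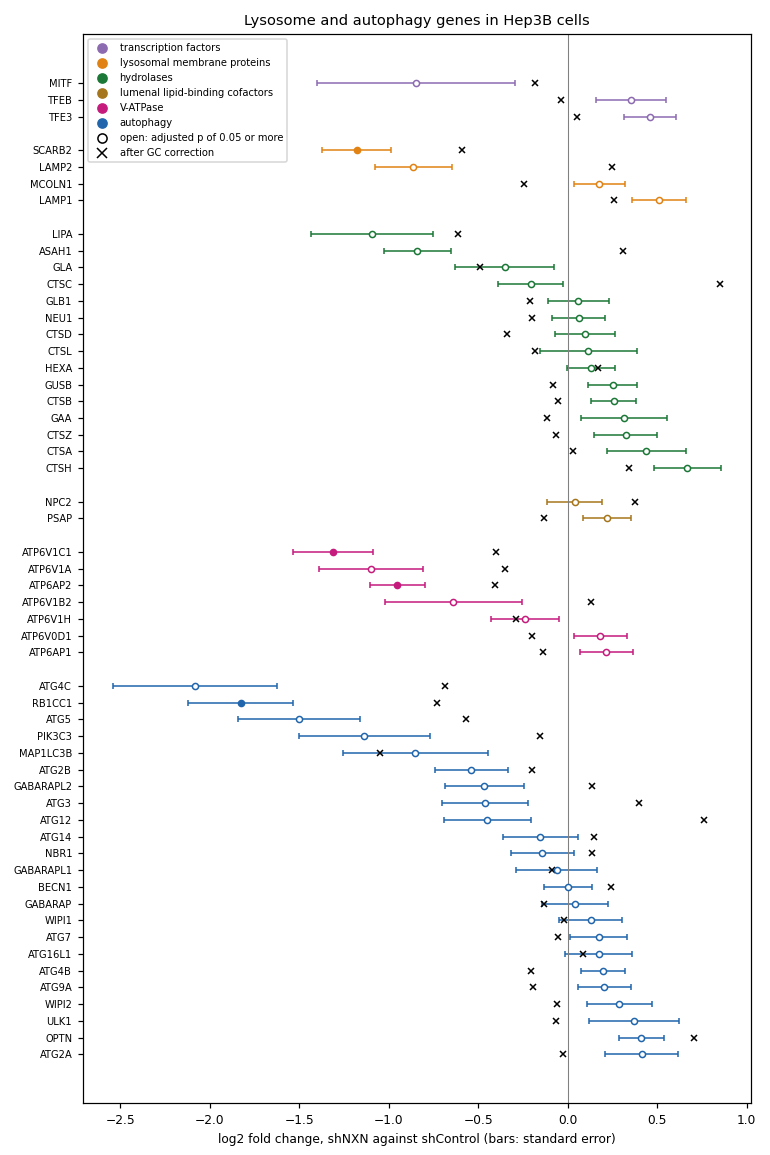
Log2 fold change of each of the 54 genes tested, shNXN against shControl (x axis), ordered by class; points and bars are edgeR estimates with standard errors, filled points have an adjusted p under 0.05, and crosses are the estimates after GC correction. The 4 filled points lie at -1.83 (RB1CC1), -1.31 (ATP6V1C1), -1.18 (SCARB2) and -0.95 (ATP6AP2), and their crosses lie nearer to 0.

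The number of calls changed when single libraries were left out, among the members and for NXN alike. Without the shNXN library of day 11, 20 members passed (17 lower), and without the shControl library of day 9 only RB1CC1 did. Leaving out the shControl library of day 7 or 11, or the shNXN library of day 7 or 9, left 0 calls. Without the shNXN library of day 11, 25 of the other genes of these pathways, described below, also passed (21 lower). The share of all features called in these fits is not given here. Whether the counts are particular to the members was therefore not tested. Among the shNXN libraries, the 4 members called were each highest on day 11. RB1CC1, for example, was at 55.5 CPM on day 11 against 34.1 and 25.4 CPM on the earlier days. ATP6V1C1 was highest on day 11 in shControl as well. The 22 members with transcripts under 45% GC had median log2 differences of -0.91, -1.12 and -0.52 by day. The others had 0.16, 0.18 and 0.29. NXN was at 42.7, 47.5 and 39.5 CPM in shNXN. Why day 11 differed was not tested. The fold changes kept their direction with each library left out, from -1.42 to -1.07 for SCARB2, -1.53 to -1.11 for ATP6V1C1, -1.04 to -0.86 for ATP6AP2 and -2.19 to -1.60 for RB1CC1 on the log2 scale. NXN itself, from -1.90 to -1.67, kept its call without the shControl library of day 9 (adjusted p = 0.0327, edgeR) or the shNXN library of day 11 (adjusted p = 0.00131, edgeR). Its call was lost in the other 4 such fits (adjusted p from 0.0633 to 0.225, edgeR). Without the shNXN library of day 7, NXN and the 4 members all had the same adjusted p, 0.225 (edgeR). Each of these fits has 5 libraries in place of 6.

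In edgeR with all libraries kept, none of the transcription factors of the pathway passed the test. TFEB was at 52.6, 54.3 and 39.4 CPM in shControl and 68.3, 68.2 and 50.7 CPM in shNXN, and the groups overlapped. The log2 fold change was 0.36 ± 0.20 (SE, adjusted p = 0.24, edgeR) and -0.04 after GC correction. TFE3, the close relative of TFEB, was at 52.1, 54.6 and 54.04 CPM in shControl and 75.3, 81.6 and 64.5 CPM in shNXN, with each shNXN library above each shControl library. A log2 fold change of 0.46 ± 0.15 (SE, adjusted p = 0.0903, edgeR) became 0.05 after GC correction. TFE3 was called higher by a second count-based test (adjusted p = 0.0382, DESeq2). It was also called without the shNXN library of day 11 (adjusted p = 0.0299, edgeR). MITF, best known from pigment cells, was scarce, at 0.983, 1.11 and 2.09 CPM in shControl and 0.791, 0.306 and 1.22 CPM in shNXN, and its log2 fold change of -0.85 had a standard error of 0.55. Per length, the mean over all libraries was 35.5 FPKM (fragments scaled to length and depth) for TFEB, 21.4 for TFE3 and 0.438 for MITF.

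Lysosomal membrane proteins lay on both sides of 0, and 1 of the 4 was called lower, beside 3.21% of all features. SCARB2 (chr4:76158733-76234536, minus strand), which carries glucocerebrosidase to the lysosome, was at 221, 236 and 233 CPM in shControl and 85.9, 86.4 and 133 CPM in shNXN. The groups were far apart, and the day 11 library was the highest of the shNXN group, with log2 differences within days of -1.36, -1.45 and -0.81. SCARB2 fell from 230.0 ± 7.81 to 102 ± 26.8 CPM (SD, n = 3), giving -1.18 ± 0.19 on the log2 scale (SE, adjusted p = 0.0452, edgeR). After GC correction its log2 fold change was -0.59 (adjusted p = 0.0989, edgeR), and -0.59 with the block as well (adjusted p = 0.0718, edgeR). Without the shNXN library of day 11 it was -1.42 (adjusted p = 0.00114, edgeR).

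LAMP1 and LAMP2, the heavily glycosylated proteins that line the lysosomal membrane, lay on opposite sides of 0. LAMP1 (chr13:113297241-113323672, plus strand) was at 927, 813 and 677 CPM in shControl and 1154, 1239 and 1051 CPM in shNXN. LAMP2 (chrX:120427827-120469365, minus strand) was at 187, 194 and 213 CPM in shControl and 87.4, 92.4 and 146 CPM in shNXN. The groups did not overlap for either gene, with LAMP1 higher and LAMP2 lower in shNXN. For LAMP1 the log2 fold change was 0.51 ± 0.15 (SE, adjusted p = 0.0814, edgeR), and the call was made with the day block (adjusted p = 0.0321, edgeR). For LAMP2 it was -0.86 ± 0.22 (SE, adjusted p = 0.0647, edgeR), again called with the block (adjusted p = 0.0216, edgeR). The LAMP2 transcript had 37.7% GC and that of LAMP1 51.2%. After GC correction LAMP2 stood at 0.25 and LAMP1 at 0.26 on the log2 scale, so that both were above 0. MCOLN1, the calcium channel of the lysosomal membrane, had a log2 fold change of 0.18 and did not pass.

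**Figure D2:**
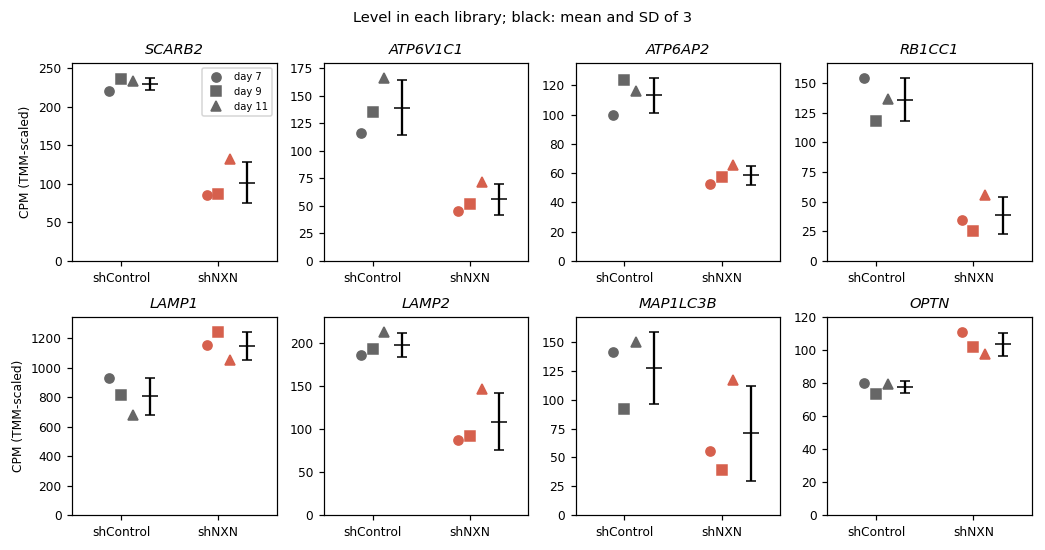
CPM of 8 genes in each library (y axis from 0, TMM-scaled) for shControl and shNXN; symbols mark the day and black bars the mean and SD of 3 libraries. SCARB2, ATP6V1C1, ATP6AP2, RB1CC1 and LAMP2 have all 3 shNXN libraries below all 3 shControl libraries, LAMP1 and OPTN have them above, and MAP1LC3B overlaps through its day 11 shNXN library at 117 CPM.

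None of the 15 hydrolases passed the test in the first fit, without the block. Their median log2 fold change was 0.12, with 11 above 0 and 4 below, against a median of 0.03 over all features tested. At an unadjusted p under 0.05 in edgeR, 2 of the 15 were lower and 1 higher, beside 21.3% of all features lower and 11.6% higher. After GC correction the median was -0.08, with 5 above 0 and 10 below, against -0.04 over all features. Per length they were the most abundant class after the cofactors, with a median of 87.3 FPKM and a range from 19.4 to 621 FPKM.

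Among the 7 proteases the fold changes ran from -0.21 to 0.67 on the log2 scale. CTSD (cathepsin D), the main aspartic protease of the lysosome and the most abundant of the 15 per length at 621 FPKM, was at 1125, 1259 and 890.0 CPM in shControl and 1199.8, 1281 and 1024 CPM in shNXN. The groups overlapped, and its log2 fold change was 0.10 ± 0.17 (SE). CTSH (cathepsin H), an aminopeptidase, was at 34.2, 35.8 and 49.4 CPM in shControl and 68.1, 61.5 and 59.9 CPM in shNXN. Every shNXN library lay above every shControl library, and the gap was widest on day 7. The log2 fold change of CTSH was 0.67 ± 0.19 (SE, adjusted p = 0.0756, edgeR), it was called higher with the day block (adjusted p = 0.0462, edgeR), and it was 0.34 after GC correction. CTSC (cathepsin C), which activates proteases by trimming them, was singled out after its values were seen: its log2 fold change of -0.21 became 0.85 after GC correction (adjusted p = 0.0952, edgeR), on a transcript with 38.2% GC. CTSA, CTSB, CTSL and CTSZ had log2 fold changes from 0.12 to 0.44 and did not pass.

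The 6 glycosidases lay between -0.35 and 0.32 on the log2 scale. NEU1, a sialidase and the most abundant of them at 189.6 FPKM, was at 319.6, 357 and 325 CPM in shControl and 288, 376 and 382 CPM in shNXN. The groups overlapped, with shNXN below shControl on day 7 and above it on days 9 and 11. GUSB (beta-glucuronidase) was at 130.3, 164 and 134 CPM in shControl and 172, 171 and 166 CPM in shNXN, and its shNXN libraries all lay above the shControl libraries, of which day 9 came close. This gave a log2 fold change of 0.25 ± 0.14 (SE, adjusted p = 0.229, edgeR). GLA, GLB1, GAA and HEXA, whose loss causes storage diseases, had log2 fold changes of -0.35, 0.06, 0.32 and 0.13 and did not pass.

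The 2 lipid-cleaving hydrolases were the lowest of the class. LIPA, which splits cholesteryl esters and triglycerides in the lysosome, was at 54.9, 39.01 and 58.03 CPM in shControl and 16.7, 17.9 and 36.7 CPM in shNXN. All 3 shNXN libraries lay below the shControl libraries, with day 11 close to the lowest control. LIPA had a log2 fold change of -1.09 ± 0.34 (SE, adjusted p = 0.0883, edgeR), called lower with the day block (adjusted p = 0.0291, edgeR), and -0.61 after GC correction. ASAH1, the acid ceramidase, was at 168, 177 and 131 CPM in shControl and 78.5, 79.8 and 107 CPM in shNXN. Its groups did not overlap either, and its log2 fold change of -0.84 ± 0.19 (SE, adjusted p = 0.055, edgeR) was called with the block (adjusted p = 0.0403, edgeR). With RLE scaling of the libraries ASAH1 was also called lower without the block (adjusted p = 0.0453, edgeR). The ASAH1 transcript had 37.3% GC, and after GC correction its log2 fold change was 0.31, opposite in sign.

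Neither lumenal cofactor passed the test. PSAP, the precursor of the saposins that present lipids to hydrolases, was at 1275, 1280.0 and 1067 CPM in shControl and 1468, 1496 and 1252 CPM in shNXN. PSAP had a log2 fold change of 0.22 ± 0.14 (SE) and the groups overlapped. NPC2, which hands cholesterol to the lysosomal membrane, was at 66.1, 72.3 and 55.3 CPM in shControl and 62.9, 65.9 and 70.2 CPM in shNXN. The groups overlapped, with a log2 fold change of 0.04 ± 0.15 (SE) in the counts and 0.38 after GC correction (adjusted p = 0.291, edgeR). In the other deposited unit NPC2 had 138, 145 and 138 FPKM in shControl and 238, 269 and 166 FPKM in shNXN, with each shNXN library above each control, a log2 difference of 0.64 (adjusted p = 0.117, limma).

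The V-ATPase genes had the lowest median of the classes. The median log2 fold change of the 7 was -0.64, with 5 below 0 and 2 called lower, beside 3.21% of all features. After GC correction the median was -0.29, with 6 below 0 and 0 called, beside 0.0355% of all features called in either direction. Per length they ranged from 24.9 to 88.3 FPKM, with a median of 37.3 FPKM. ATP6V1C1, the C subunit of the cytosolic part, was at 117, 135 and 166 CPM in shControl and 45.03, 51.5 and 71.7 CPM in shNXN. Its groups were apart on every day, with log2 differences of -1.37, -1.39 and -1.21. ATP6V1C1 fell from 139 ± 25.2 to 56.1 ± 13.9 CPM (SD, n = 3), giving -1.31 ± 0.22 on the log2 scale (SE, adjusted p = 0.0452, edgeR), which became -0.40 after GC correction (adjusted p = 0.256, edgeR). ATP6AP2 (chrX:40579372-40606848, plus strand), an accessory protein of the pump that is also known as the prorenin receptor, was at 99.9, 123 and 116 CPM in shControl and 52.9, 57.1 and 65.5 CPM in shNXN. The shNXN libraries lay close together and below all the controls, with log2 differences of -0.91, -1.11 and -0.82 by day. It fell from 113 ± 12.1 to 58.5 ± 6.39 CPM (SD, n = 3), giving -0.95 ± 0.15 on the log2 scale (SE, adjusted p = 0.0452, edgeR), and -0.41 after GC correction (adjusted p = 0.227, edgeR).

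ATP6V1A, the catalytic subunit that hydrolyses ATP, was at 95.4, 111 and 101 CPM in shControl and 39.01, 33.2 and 71.2 CPM in shNXN. Its shNXN libraries were all lower, with day 11 nearest to the controls. The log2 fold change was -1.10 ± 0.29 (SE, adjusted p = 0.0693, edgeR), and it was called lower with the day block (adjusted p = 0.0339, edgeR). ATP6V1B2 and ATP6V1H, also of the cytosolic part, had log2 fold changes of -0.64 and -0.24, and ATP6V0D1 of the membrane part and the accessory protein ATP6AP1 had 0.18 and 0.22. None of these 4 passed. The 4 genes with transcripts under 45% GC (ATP6V1C1, ATP6V1A, ATP6AP2 and ATP6V1B2) were all below 0, with a median of -1.03, while the 3 others had a median of 0.18.

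The autophagy machinery as a whole was near the median of all features. Of the 23 genes tested, 11 were above 0 and 12 below, with a median log2 fold change of -0.06. Of these genes 1 was called lower, beside 3.21% of all features. The range, from -2.08 to 0.41, was wider than that of the hydrolases, and the median level per length was 33.9 FPKM. With the day block 5 were lower (21.7%) and 1 higher (4.35%), beside 17.0% and 6.28% of all features.

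RB1CC1 (also called FIP200), the scaffold of the ULK1 kinase complex, was the autophagy gene called. It was at 154, 118 and 136 CPM in shControl and 34.1, 25.4 and 55.5 CPM in shNXN, with the groups well apart and log2 differences of -2.17, -2.20 and -1.29 by day. RB1CC1 fell from 136 ± 18.4 to 38.4 ± 15.5 CPM (SD, n = 3), giving -1.83 ± 0.29 on the log2 scale (SE, adjusted p = 0.0452, edgeR). After GC correction it was -0.73 (adjusted p = 0.103, edgeR), and in the FPKM table it was 0.12 on the log2(FPKM + 1) scale. ULK1, the kinase itself, was at 154, 142 and 86.2 CPM in shControl and 185, 182 and 127 CPM in shNXN, and its log2 fold change of 0.37 ± 0.25 (SE, adjusted p = 0.324, edgeR) became -0.06 after GC correction. The groups of ULK1 overlapped. ULK2, its relative, was too scarce to test.

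In the lipid kinase complex, PIK3C3 (also called VPS34), the catalytic subunit, was at 46.9, 58.1 and 62.8 CPM in shControl and 18.4, 16.6 and 41.4 CPM in shNXN. Its shNXN libraries were all lower, with day 11 just under the lowest control. The log2 fold change was -1.14 ± 0.36 (SE, adjusted p = 0.093, edgeR), called lower with the block (adjusted p = 0.031, edgeR), and -0.15 after GC correction. BECN1 (Beclin 1), the regulatory partner, was at 70.4, 76.7 and 77.1 CPM in shControl and 69.7, 80.7 and 74.2 CPM in shNXN, and its groups overlapped fully, with a log2 fold change of 0.00 ± 0.13 (SE). ATG14, which directs the complex to autophagy, had a log2 fold change of -0.15 and did not pass.

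Of the 5 genes of lipid supply and of the proteins that read the lipid mark, 4 were above 0. WIPI2, which recruits the conjugation machinery, was at 361, 323 and 242 CPM in shControl and 382, 419 and 329 CPM in shNXN, with overlapping groups and a log2 fold change of 0.29 ± 0.18 (SE). ATG2B, a lipid transfer protein, was at 20.6, 24.3 and 24.4 CPM in shControl and 15.5, 13.2 and 18.9 CPM in shNXN, and every shNXN library lay below every control. Its log2 fold change of -0.54 ± 0.20 (SE, adjusted p = 0.125, edgeR) did not pass. Its paralog ATG2A had 0.41, the scramblase ATG9A had 0.21 and WIPI1 had 0.13.

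The 7 conjugation genes held some of the lowest values of the list, and none passed in the first fit, without the block. With RLE scaling of the libraries, also without the block, ATG5 and ATG4C were called lower (adjusted p = 0.0453 and 0.044, edgeR). ATG5, which is joined to ATG12 to form the enzyme that lipidates LC3, was at 37.8, 46.7 and 40.8 CPM in shControl and 11.8, 9.38 and 23.1 CPM in shNXN. Its groups were apart, least so on day 11. The log2 fold change was -1.50 ± 0.34 (SE, adjusted p = 0.0575, edgeR), called lower with the block (adjusted p = 0.028, edgeR), and -0.57 after GC correction (adjusted p = 0.248, edgeR). ATG4C, a protease that primes LC3-family proteins, had the lowest estimate of all members in the counts without GC correction, a log2 fold change of -2.08 ± 0.46 (SE, adjusted p = 0.0537, edgeR), and it was called with the block (adjusted p = 0.0142, edgeR). After GC correction ATG4C was at -0.68 (adjusted p = 0.229, edgeR), or -0.70 with the block, and MAP1LC3B was then the lowest member. It was also scarce, at 8.59, 5.78 and 11.96 CPM in shControl and 1.64, 1.23 and 3.35 CPM in shNXN, and had the lowest transcript GC content of the list, 34.8%. ATG4B, the more abundant protease of this family, was at 144, 138 and 124 CPM in shControl and 163, 154 and 149 CPM in shNXN. Its shNXN libraries lay above the controls by little, with a log2 fold change of 0.20 ± 0.12 (SE) that became -0.21 after GC correction. The E1 and E2 enzymes ATG7 and ATG3 had log2 fold changes of 0.17 and -0.46, ATG12 had -0.45 and ATG16L1 had 0.17. After GC correction ATG12 was at 0.76 (adjusted p = 0.114, edgeR), or 0.75 with the block (adjusted p = 0.114, edgeR), opposite in sign.

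Among the ATG8 family, the proteins that coat the autophagosome, MAP1LC3B (LC3B, chr16:87383995-87404779, plus strand) was at 141, 92.2 and 149.9 CPM in shControl and 55.7, 39.5 and 117 CPM in shNXN. It was lower in shNXN within each day, by log2 differences of -1.34, -1.22 and -0.35, and the groups overlapped only because the day 11 shNXN library lay above the day 9 control. The log2 fold change was -0.85 ± 0.40 (SE, adjusted p = 0.185, edgeR), and it was called lower with the day block (-0.97, adjusted p = 0.0371, edgeR). Its transcript had 50.4% GC, and GC correction left the value at -1.05 (adjusted p = 0.255, edgeR) or, with the block, -1.18 (adjusted p = 0.0764, edgeR). With a library left out the log2 fold change ran from -1.42 without the shNXN library of day 11 (adjusted p = 0.00959, edgeR) to -0.56 without that of day 9 (adjusted p = 0.423, edgeR). Whether it differed from the other members of the family was not tested. MAP1LC3B was the only member at 45% GC or more that was called lower with the day block. Its near-identical copy MAP1LC3B2 was listed among the other autophagy genes described below, and its values are not given here. Reads from that copy could have been counted with MAP1LC3B.

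The other 3 members of the family did not pass in any fit with all libraries kept. GABARAPL2 passed without the shNXN library of day 11, at -0.70 on the log2 scale (adjusted p = 0.0283, edgeR). GABARAP was at 207, 285 and 179.7 CPM in shControl and 229, 238 and 226 CPM in shNXN. GABARAPL1 was at 31.99, 42.6 and 26.1 CPM in shControl and 37.2, 29.7 and 29.6 CPM in shNXN. GABARAPL2 was at 29.2, 29.9 and 32.3 CPM in shControl and 20.1, 17.5 and 28.6 CPM in shNXN. GABARAP and GABARAPL1 overlapped between groups, while GABARAPL2 was lower in each shNXN library. The log2 fold changes were 0.04, -0.06 and -0.47. Per length GABARAP was the most abundant autophagy gene, at 539 FPKM, against 44.4 FPKM for MAP1LC3B.

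The 2 cargo receptors of the list differed. OPTN (optineurin), which brings ubiquitinated mitochondria and bacteria to LC3, was at 80.05, 73.6 and 79.8 CPM in shControl and 111, 102 and 97.8 CPM in shNXN. All shNXN libraries were higher, at each day. Its log2 fold change was 0.41 ± 0.13 (SE, adjusted p = 0.086, edgeR), it was called higher with the block (adjusted p = 0.0484, edgeR), and GC correction moved it to 0.70 (adjusted p = 0.103, edgeR). OPTN and NPC2 were the only members under 45% GC with a log2 fold change above 0. NBR1, a receptor for protein aggregates, was at 169, 229 and 155 CPM in shControl and 180.2, 169 and 153 CPM in shNXN, with overlapping groups and a log2 fold change of -0.14 ± 0.18 (SE).

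Hydrolases and autophagy genes were then set side by side. The hydrolase median exceeded the autophagy median by 0.18 on the log2 scale, and by 0.18 with the day block. By day, with 1 library per group, hydrolases had median log2 differences of 0.09, 0.02 and 0.23 on days 7, 9 and 11. For the autophagy genes they were 0.04, -0.06 and -0.02. The medians of all features tested were 0.0003, -0.0048 and 0.07, and the hydrolases lay farthest above them on day 11. The difference between the classes was 0.06, 0.08 and 0.26 on the 3 days, with no replicate within a day and hence no test. After GC correction it was -0.02 over the 6 libraries and -0.05, -0.15 and -0.04 by day. In the FPKM table it was 0.05. The sign of the difference thus differed between the fits without and with GC correction. The V-ATPase genes differed more between days than either class, with medians of -0.91, -1.11 and -0.06, or -0.33, -0.34 and 0.06 after GC correction.

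**Figure D3:**
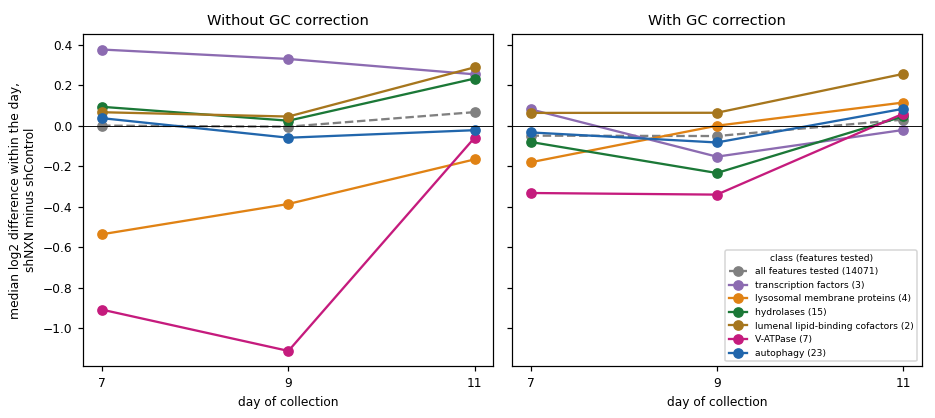
Median log2 difference, shNXN minus shControl, within each day (x axis) for the 6 classes and all features tested, without (left) and with (right) GC correction; each point compares 1 library with 1 library. On the left the V-ATPase line runs from -0.91 and -1.11 to -0.06, and hydrolases lie above autophagy genes on each day; on the right hydrolases lie below them on each day, by 0.05, 0.15 and 0.04.

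Within both classes the fold change followed transcript GC content. Spearman's rho was 0.76 across the 15 hydrolases and 0.81 across the 23 autophagy genes, and 0.83 across all 54 members, as a description across genes of the same libraries. Across the 12740 features with a known GC content it was 0.79, so the relation was one of the whole table. Of the 22 members under 45% GC, 20 were below 0, with a median of -0.84, and all 4 genes called lower were among them. Of the 32 tested members at 45% GC or more, 28 were above 0, with a median of 0.19. The same split over all features is not given here, so whether it is particular to the members was not tested. The hydrolases held 3 genes under 45% GC out of 15 and the autophagy list 11 out of 24. Within the low-GC genes the medians were -0.84 for hydrolases and -0.47 for autophagy genes, and within the others 0.19 and 0.17. After GC correction the median of the 22 low-GC members was -0.01 and that of the others -0.08, and rho over the members was -0.06. Over all features rho was then -0.03. The correction removes the GC trend of every library, so the loss of the relation follows by construction.

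**Figure D4:**
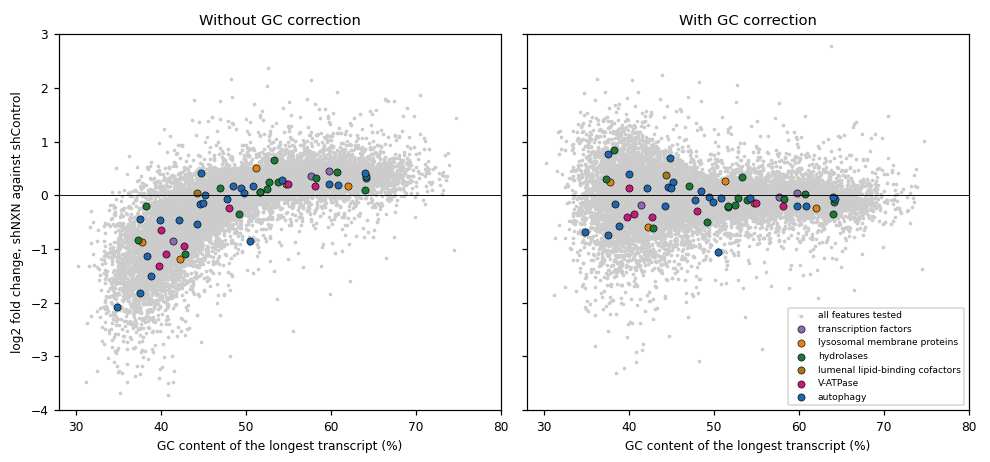
Log2 fold change (y axis) against GC content of the longest transcript in percent (x axis) for all features tested with a known GC content (grey) and the members (coloured by class), without (left) and with (right) GC correction. On the left members under 45% GC have a median of -0.84 and the others 0.19. On the right, where the GC trend is removed by construction, the medians are -0.01 and -0.08, and MAP1LC3B at 50.4% GC lies at -1.05.

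The 9 genes with the E-box core in their promoter window, shown above for 6 of them, had a median log2 fold change of 0.18, with 7 above 0. The 35 tested genes whose window lacked the core had a median of 0.04, with 20 above 0. The 10 genes with no window had a median of -0.74, with 3 above 0. They include ATP6V1C1 and RB1CC1, both called lower, and could not be placed on either side. After GC correction these medians were -0.12, -0.08 and -0.09. The transcripts of the genes with the core had a median GC content of 58.1%, those without it 49.2% and those with no window 40.3%. A match to these letters is a description of the window and not evidence that a factor binds there.

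The second deposited unit, FPKM, gave values close to the counts for most members and far from them for a few. Of 53 members with both values, 46 had log2 fold changes that differed by under 0.25 between the units, 6 differed by over 0.5 and 3 had opposite signs. By limma on log2(FPKM + 1), 2 members were lower, against a background of 1.62% of features. They were ATP6V1C1, with 42.02, 88.2 and 48.97 FPKM in shControl and 12.1, 13.8 and 18.4 FPKM in shNXN, and ATG12. ATG12 had 29.6, 50.6 and 35.5 FPKM in shControl and 11.1, 11.6 and 17.9 FPKM in shNXN. Both were low in every shNXN library, at log2 differences of -1.89 (adjusted p = 0.0436, limma) and -1.44 (adjusted p = 0.0474, limma).

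RB1CC1 had the largest gap between the units, a log2 fold change of -1.83 in counts and 0.12 in FPKM. Its FPKM values were 32.5, 35.4 and 28.4 FPKM in shControl and 42.3, 39.6 and 25.4 FPKM in shNXN, with overlapping groups. The ratio of its CPM to its FPKM, which for a fixed transcript length changes little, ran from 3.31 to 4.80 in shControl and from 0.652 to 2.11 in shNXN. ATP6AP2 likewise had 62.6, 149.8 and 67.7 FPKM in shControl and 88.7, 93.1 and 67.7 FPKM in shNXN, a log2 difference of -0.06 against -0.95 in counts. For ATG12 the order was reversed, with -0.45 in counts (0.76 after GC correction) and -1.44 in FPKM, and ATG4C had -2.08 in counts and -1.04 in FPKM. NPC2 and ATP6V1C1 were the other 2 that differed by over 0.5. ATG12 and NPC2 were named after their values were seen. The lengths behind the FPKM values are not given in the sources used here, and the cause of these gaps was not tested.

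**Figure D5:**
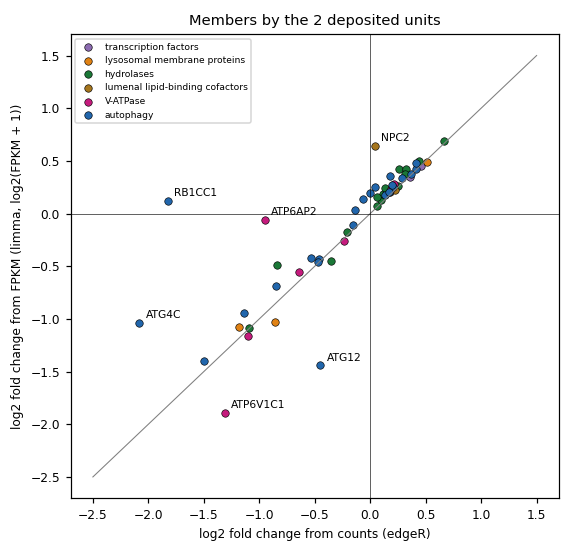
Log2 fold change from FPKM (y axis, limma on log2(FPKM + 1)) against that from counts (x axis, edgeR) for 53 members, coloured by class, with the line of equal values. Most members lie along the line; the 6 labelled ones differ by over 0.5, RB1CC1 most, at -1.83 in counts and 0.12 in FPKM.

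Of 106 other genes of the lysosome, V-ATPase, autophagy and mTORC1 pathways, 103 were tested. Of these 0 were called lower and 1 higher, beside 3.21% and 0.185% of all features. Their median log2 fold change was 0.12, and -0.08 after GC correction. At an unadjusted p under 0.05 in edgeR 19 were lower (18.4%) and 9 higher (8.74%), beside 21.3% and 11.6% of all features. With the day block 14 were called lower (13.6%) and 4 higher (3.88%), beside 17.0% and 6.28%. By group, other lysosomal genes had a median of 0.14 (46 tested), other V-ATPase subunits 0.03 (10 tested), other autophagy genes 0.06 (29 tested) and the mTORC1 and nutrient-sensing genes 0.06 (18 tested).

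The gene called was SQSTM1 (p62, chr5:179806398-179838078, plus strand), the cargo receptor that links ubiquitinated proteins to LC3. SQSTM1 was at 937, 811 and 868 CPM in shControl and 1372, 1702 and 1314 CPM in shNXN. Each shNXN library was above each control, with the highest on day 9. It rose from 872 ± 63.2 to 1463 ± 209 CPM (SD, n = 3), giving 0.75 ± 0.14 on the log2 scale (SE, adjusted p = 0.0473, edgeR). After GC correction the log2 fold change was 0.35 (adjusted p = 0.233, edgeR), on a transcript with 58.0% GC. The call was lost when any library other than the shNXN library of day 11 was left out, with values from 0.63 to 0.83.

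The 4 other genes with the smallest p were lower in shNXN without passing. LAMTOR3, part of the scaffold that holds mTORC1 on the lysosome, was at 36.3, 24.2 and 43.4 CPM in shControl and 6.63, 6.80 and 16.5 CPM in shNXN. Its groups were apart, with a log2 fold change of -1.80 (adjusted p = 0.059, edgeR), and it was called with the block (adjusted p = 0.0156, edgeR). FNIP1, a folliculin partner in nutrient sensing, had -1.09, MANBA, a mannosidase, had -0.79 and LAPTM4A, a lysosomal membrane protein, had -0.67, each also called with the block. The shNXN libraries of all 4 genes lay below the controls. After GC correction the log2 fold changes were -0.72, -0.10, 0.02 and -0.43 in the same order.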

How the data were processed

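Total RNA of 6 Hep3B samples was sequenced from libraries made with a SMARTER mRNA kit. Estimated counts per feature and library were deposited by the authors, 15.1% to 18.8% of them not whole numbers, and an FPKM value for the same features in a second table. The aligner, the counter and the annotation are not given in the sources used here. The submitters' processing notes name mouse builds (GRCm 38, mm 10), whereas the identifiers are human, so how reads were mapped is uncertain, and counts of near-identical paralogs such as the LC3 and GABARAP families may be split. There were 0 columns without a sample.

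Groups and days were taken from the labels. The deposited counts, after rounding, entered edgeR 4.0.16 under R 4.3.3: TMM factors, filterByExpr, quasi-likelihood test, Benjamini-Hochberg adjustment over all features, with an adjusted p under 0.05 as the call. CPM values were scaled by TMM. FPKM values, as deposited by the authors, were tested with limma 3.58.1 on log2(FPKM + 1), for features with a mean of at least 0.5 FPKM, and this fold change understates the change of low genes. The replicate numbers follow the days in the labels, so they pair the libraries: deviations from the group means correlated at 0.30, 0.31 and 0.45 for libraries of the same day and between -0.37 and 0.15 otherwise. The chi-square per feature between replicates of a group ran from 20.1 to 77.8, so none were duplicates.

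GC content was that of the longest GENCODE 29 transcript (GRCh38), known for 90.5% of the features tested and for all 55 members. A natural spline with 5 degrees of freedom was fitted to the log2 deviations of each library, centred to keep the library's median deviation, and used as an offset. It takes out every group difference tied to GC content, technical or biological. Coordinates are those of GENCODE 29, except the promoter windows from RefSeq. The tests were also tried on simulated data, drawn with the levels and dispersions of these libraries. The simulated libraries had no day effect and no GC trend. What the block or the GC correction gains or costs in these data therefore cannot be read from them. In the simulation edgeR recovered 21% of log2 changes of 1 and 82% of log2 changes of 2, with 10 false calls. With the day block these were 11% and 76%, with 4 false calls. A gene that did not pass is therefore not shown to be unchanged. Alternatives were DESeq2 1.42.0, RLE factors, library size only, other filters, the day block, the GC correction, a pseudocount of 0.1 and each library left out in turn.

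The members, classes and other lists were chosen with earlier results of these data known. Values in every library are given for the members called in the fit without the block, with it, or with it and the GC correction (at most 12), for the most abundant and the lowest-p member of each of 13 classes, for the transcription factors and for the ATG8 family. This rule gave 31 genes. Of the other pathway genes the 5 with the smallest p are named. Scripts used Python 3.11.15, numpy 2.4.6, pandas 2.3.3 and scipy 1.17.1.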

Additional observations from a re-analysis of the deposited data

Results flagged for a closer look

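For 13 of the 54 members tested (24.1%), and for 4443 of the 14071 features tested (31.6%), the log2 difference between shNXN and shControl changed sign between days. Each day had 1 library per group, so whether the days differ was not tested, and groups of 3 libraries were too small for an outlier test.

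The widest span was that of ATP6V1B2, a V-ATPase subunit, with log2 differences of -0.91, -1.60 and 0.14 on days 7, 9 and 11, a span of 1.74. The hydrolase GLA had -0.58, -0.77 and 0.10, a span of 0.87, and the protease CTSC had -0.29, -0.60 and 0.20, a span of 0.80. These 3 genes were lower in shNXN on days 7 and 9 and higher on day 11. NPC2 had -0.07, -0.13 and 0.35, a span of 0.48, in the same pattern.

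GABARAPL1, an ATG8 family protein, had log2 differences of 0.22, -0.52 and 0.18 over the same days, a span of 0.74. GABARAP of the same family had 0.14, -0.26 and 0.33, a span of 0.59, and both were lower in shNXN on day 9 alone. So were the protease CTSL, with 0.28, -0.19 and 0.40 and a span of 0.59, the glycosidase GLB1, with 0.03, -0.02 and 0.20 and a span of 0.23, and the lipid-binding protein WIPI1, with 0.04, -0.06 and 0.42 and a span of 0.48. The cargo receptor NBR1 had 0.09, -0.44 and -0.02, a span of 0.53. For GABARAPL1, GABARAP and NBR1 the shControl library of day 9 was the highest of the 6. The sialidase NEU1 had -0.15, 0.07 and 0.23, a span of 0.39, and was lowest in the shNXN library of day 7. BECN1 had -0.01, 0.07 and -0.06, a span of 0.13, and ATG14 of the same complex had -0.24, 0.05 and -0.22, a span of 0.29. The median of the autophagy genes was 0.04, -0.06 and -0.02, a span of 0.10.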

How the results depend on the processing

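The number of members called (4) became 15 with DESeq2, 7 after RLE scaling, 8 by library size alone, 7 unfiltered, 15 with the replicate block, 0 after GC correction (replicate block or not), 2 by FPKM + 1, 0 by FPKM + 0.1, and 0 to 20 with each library left out. The other pathway genes called (1) became, in the same order, 19, 3, 6, 3, 18, 0 and 0, 0 and 0, and 0 to 25. With DESeq2 11 members were lower and 4 higher, beside 2315 and 788 of the 14071 features tested. With the replicate block 12 members were lower and 3 higher, beside 2389 and 883 features. Where the share of all features called is not given for a setting, its counts were not set against a background. By FPKM the 2 members became 0 with a pseudocount of 0.1 or unfiltered, and 0 to 13 with a library left out. NXN kept its direction, at -1.75 with FPKM + 0.1 (adjusted p = 0.0638, limma) and -1.90 to -1.67 with a library left out. With GC correction, without and with the replicate block, the hydrolase median was -0.0795 and -0.0755 and its difference from the autophagy median -0.0230 and -0.0226. By FPKM (pseudocounts 1 and 0.1) the autophagy median was 0.136 and 0.142 and the difference 0.0482 and 0.0531. Leaving out 1 library gave 0.0373 to 0.249 for the hydrolases, -0.158 to 0.0629 for the autophagy genes and 0.0999 to 0.287 for the difference.

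Of the 54 members tested, 30 (55.6%) changed sign under GC correction, beside 37.7% of all features tested. Among the members and other pathway genes named by the rule, signs changed under GC correction, without and with the replicate block, for LAMP2 (0.25, 0.25), ASAH1 (0.31, 0.35), NBR1 (0.13, 0.14), GABARAPL2 (0.14, 0.13), MANBA (0.024, 0.038), GABARAP (-0.13, -0.11), ATG4B (-0.21, -0.21), ULK1 (-0.064, -0.053), WIPI2 (-0.0565, -0.041), NEU1 (-0.20, -0.21), CTSD (-0.34, -0.34), PSAP (-0.13, -0.13), TFEB (-0.037, -0.0295) and GUSB (-0.0795, -0.0755), as log2 fold changes. Members outside the rule that changed sign, with the values of the same 2 fits, include CTSC (0.85, 0.87), ATG12 (0.76, 0.75), ATG3 (0.40, 0.40), ATP6V1B2 (0.13, 0.11) and MCOLN1 (-0.24, -0.25). By FPKM, with pseudocounts of 1 and 0.1, RB1CC1 (0.12, 0.13), NBR1 (0.0316, 0.0324) and GABARAPL1 (0.14, 0.14) changed sign. With at least 10 counts in every library BECN1 was at -0.0048. With a library left out the range was -0.0327 to 0.285 for GABARAP, -0.0526 to 0.0857 for BECN1, -0.19 to 0.0777 for NBR1, -0.0085 to 0.19 for NEU1 and -0.18 to 0.18 for GABARAPL1. The replicate block changed no sign. The causes were not tested, beyond the fewer libraries or features where some were left out. The scarcest members tested, MITF and ATG4C, had standard errors of 0.55 and 0.46, and ULK2 was not tested.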
